A study of Caenorhabditis elegans with 12 samples.

Results

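The loss of RDE-4 in worms that already carry a weak insulin/IGF-1 signaling (IIS) mutation was followed by comparing the mRNA of *age-1(hx546); rde-4(ne301)* double mutants with that of *age-1(hx546)* single mutants, called the double mutant and *age-1* in what follows. These are 6 of the 12 libraries of the series, 3 independent worm populations of each genotype, and the comparison was made across all genes. Of 46653 gene identifiers in the count file, the 16741 with enough counts were tested. Both groups carry *hx546*, an allele that lowers IIS moderately and makes worms long-lived, and they differ by *ne301*, a null allele of *rde-4*. The paper describes strains outcrossed to WT for its lifespan assays and also lists versions not marked as outcrossed. It does not say which of them were sequenced. All populations were *Caenorhabditis elegans* grown at 20 °C on *E. coli* OP50 and collected on the first day of adulthood, before embryos could be seen inside them. The other 6 libraries are 3 of WT (the N2 strain) and 3 of *rde-4(ne301)* on the WT background, grown in the same way. The latter 6 share no population with the 6 compared here, so they measure in separate populations what the same *rde-4* mutation did when *age-1* was intact. Each library is RNA from whole worms, so a lower level of a tissue's transcripts cannot be told apart from fewer cells of that tissue.

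RDE-4 binds long double-stranded RNA and hands it to Dicer, and the short products are primary small interfering RNAs (siRNAs). In worms these primary siRNAs load Argonaute proteins, and RNA-dependent RNA polymerases then copy the target into more abundant secondary siRNAs that silence it. Endogenous primary siRNAs that need RDE-4 follow branches named after their Argonautes. The ERGO-1 branch, which also needs the polymerase RRF-3, silences pseudogenes, long noncoding RNAs and recently duplicated genes in oocytes and embryos. The ALG-3 and ALG-4 branch acts on genes of spermatogenesis.

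The labels were first checked on the mutated gene. The *rde-4* transcript (T20G5.11, chromosome III, 10217302 to 10218646, WBcel235) was at 149, 138 and 149 CPM in *age-1* against 25.4, 29.2 and 29.8 CPM in the double mutant. The groups did not overlap (log2 fold change −2.37, SE 0.11, adjusted p = 4.94e-07). Levels here are CPM, the counts of a gene scaled to the size of its library with TMM factors, and 1 CPM stood for 72.9 to 83.3 counts, depending on the library. A log2 fold change of 1 is a doubling, and p-values of edgeR's quasi-likelihood test were adjusted over the 16741 genes tested by the method of Benjamini and Hochberg. A gene is called when its adjusted p is under 0.05. SE is an approximate standard error, the absolute log2 fold change divided by the square root of the test's F statistic. The transcript of *age-1*, which encodes a lipid kinase of the IIS pathway, was at 137, 129 and 128 CPM in *age-1* against 82.1, 146 and 150.3 CPM in the double mutant, without a call (log2 fold change −0.06, adjusted p = 0.942).

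The 12 libraries held 74501098 to 82446102 counts. Among the 6, replicate 1 of *age-1; rde-4* stood apart from its group. In 2110 of 16741 genes its level was more than 2-fold from the mean of the other 2 populations, against 1185 and 1220 genes for the other *age-1; rde-4* populations and 920 to 1214 genes for the *age-1* populations. On the first principal component (35.4% of the variance of the 6 libraries) it was at −19.5, within the *age-1* range of −41.9 to −17.9, while replicates 2 and 3 were at 55.9 and 55.2. The count of calls, and those of the gene groups in which it changed most, are therefore also given without this population.

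Loss of RDE-4 in the *age-1* background left most transcripts without a call, and more genes were called higher than lower. At an adjusted p under 0.05, 53 genes were higher (0.317% of those tested) and 18 were lower (0.108%) in the double mutant, 71 in all (0.424%). In each of the 71 the 3 values a side did not overlap, which was also so for 9.36% (higher) and 12.4% (lower) of all genes tested. The higher genes had a median log2 fold change of 2.00 and the lower genes one of −0.93, beside −0.06 over all genes. At an unadjusted p under 0.05 the split was the other way, with 874 higher (5.22%) and 975 lower genes (5.82%). The size of the call set depended on the libraries and the test. Without replicate 1 of *age-1; rde-4* there were 122 higher (0.713%) and 49 lower genes (0.286%), among them 43 of the 53 and 16 of the 18, and without *age-1* replicate 1 there were 17 and 3. DESeq2 gave 285 (1.7%) and 158 (0.944%), which held all 71. A core of 20 genes, 17 higher and 3 lower, was called in all 12 libraries together, in the 6 libraries alone, with RLE scaling, with DESeq2 and in each of 6 fits that left out 1 library. The plot of fold change against level shows that the higher genes were mostly of low to middle level and that the called genes of high level had small folds.

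**Figure D1:**
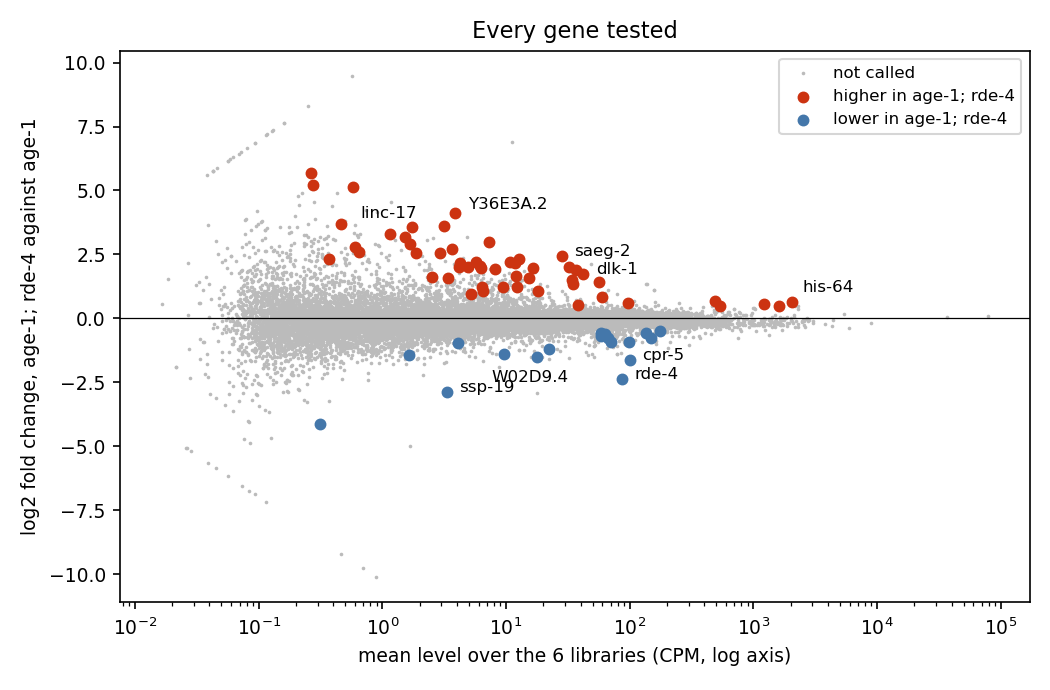
Each point is 1 of the 16741 genes tested. The horizontal axis is the mean level over the 6 libraries in CPM on a log scale and the vertical axis is the fitted log2 fold change of the double mutant over *age-1*. Red points are the 53 higher genes and blue points the 18 lower genes. The called genes with a log2 fold change above 4, Y116A8C.19, *fbxa-52*, ZK899.5 and Y36E3A.2, are all of low level.

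A small number of long noncoding RNAs rose. Of 16741 genes tested, 82 are annotated as lincRNAs, and 7 of these 82 rose (13.2% of the higher genes, against 0.49% of all genes tested). The list of genes named *linc*, of which 75 were tested, had 5 calls higher and none lower, 10 and 3 at an unadjusted p under 0.05, and a median log2 fold change of 0.09. Without replicate 1 of the double mutant it had 4 calls and a median of −0.12. *linc-17* (Y49F6A.9, chromosome II, 3596226 to 3596812) was at 0.396, 0.644 and 0.399 CPM in *age-1* against 7.09, 4.92 and 5.44 CPM in the double mutant (log2 fold change 3.595, SE 0.28, adjusted p = 9.64e-05). Every *age-1; rde-4* population was above every *age-1* population, and the same RNA went from 0.543, 0.384 and 0.465 CPM in WT to 4.77, 5.15 and 3.57 CPM in *rde-4*. *linc-45* (C44B11.9, chromosome III, 3151809 to 3152607) and *linc-19* (chromosome III, 3150222 to 3151352) lie 457 bp apart on 1 strand, and C44B11.6, a coding gene, lies 541 bp from *linc-45*. *linc-45* was at 0.106, 0.296 and 0.386 CPM in *age-1* against 4.17, 2.66 and 2.73 CPM in the double mutant (log2 fold change 3.59, adjusted p = 0.00209). *linc-19* was at 0.0644 to 0.396 CPM in *age-1* against 1.5 to 3.02 CPM in the double mutant (log2 fold change 3.31, adjusted p = 0.0449), and C44B11.6 was at 3.92 to 7.98 CPM in *age-1* against 14.9 to 24.4 CPM in the double mutant (log2 fold change 1.65, adjusted p = 0.0363). All 3 neighbours thus rose. A second such pair is *linc-41* and *linc-21* (F36A4.22 and F36A4.21, both on chromosome IV), 321 bp apart. *linc-41* was at 0.29, 0.451 and 0.451 CPM in *age-1* against 2.71, 3.67 and 2.53 CPM in the double mutant (log2 fold change 2.90, adjusted p = 0.00408). *linc-21* was at 1.66, 1.76 and 1.25 CPM in *age-1* against 7.63, 6.86 and 6.44 CPM in the double mutant (log2 fold change 2.16, adjusted p = 0.00603). The lincRNAs H09G03.1 and F39E9.10 rose too, from 1.65 to 6.73 CPM and from 5.67 to 13.2 CPM in the mean (log2 fold changes 2.03 and 1.22, adjusted p = 0.00672 and 0.0113). Calls of *linc-17*, *linc-45*, *linc-41* and *linc-21* were kept in all 6 fits that left out 1 library, that of H09G03.1 in 5 (adjusted p = 0.0663 without *age-1* replicate 1), that of F39E9.10 in 3 (up to 0.0968 without *age-1* replicate 1), that of C44B11.6 in 1 (up to 0.172 without *age-1* replicate 3) and that of *linc-19* in none (up to 0.212 without *age-1* replicate 3).

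**Figure D2:**
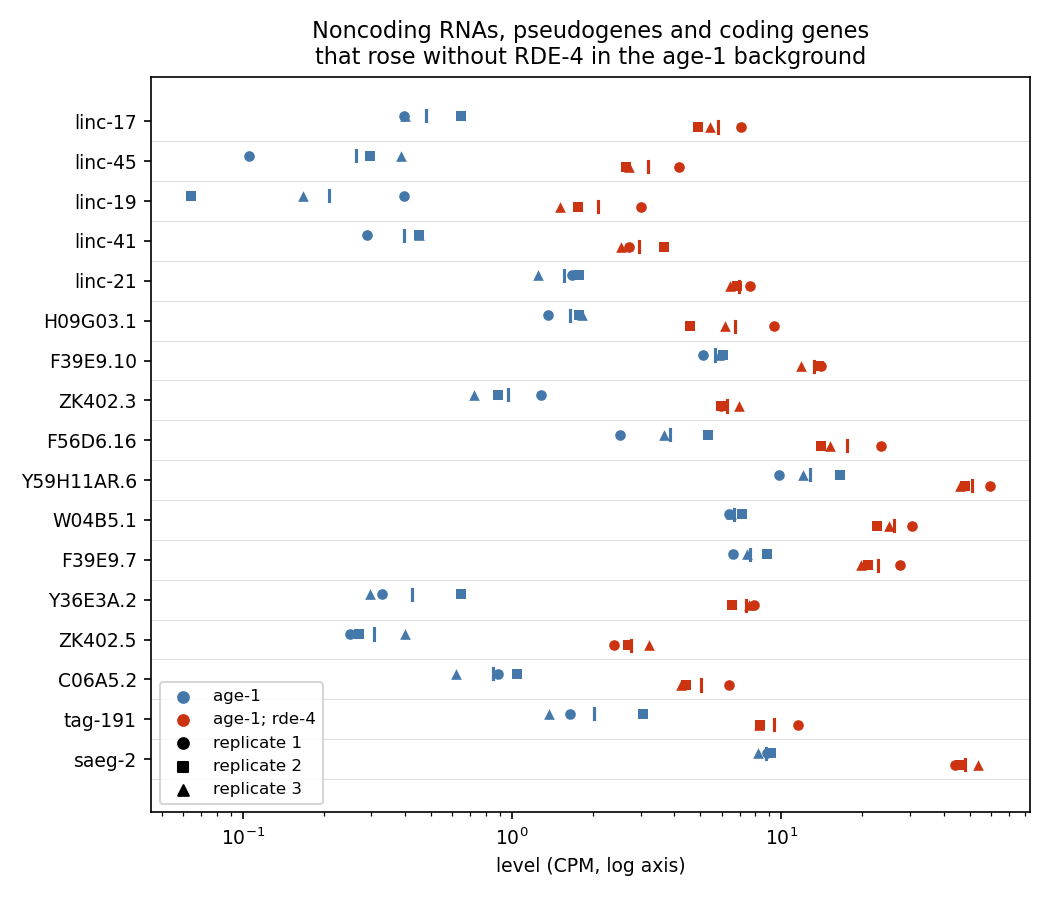
Level in CPM on a log scale in each of the 3 *age-1* (blue) and 3 *age-1; rde-4* (red) populations for 17 of the higher genes, with the replicate as the marker and the mean as a short line. In every gene shown the red points lie to the right of the blue ones.

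Of pseudogenes, 7 of 639 tested pseudogenes rose (13.2% of the higher genes, against 3.82% of all genes) and 1 fell. Y59H11AR.6 (chromosome IV, 8597762 to 8598727) was at 9.8, 16.5 and 12 CPM in *age-1* against 59.4, 48.2 and 46.1 CPM in the double mutant (log2 fold change 2.00, SE 0.20, adjusted p = 0.000833). W04B5.1 (chromosome III, 2428204 to 2429430) was at 6.41, 7.12 and 6.48 CPM in *age-1* against 30.7, 22.6 and 25.1 CPM in the double mutant (log2 fold change 1.97, adjusted p = 0.00209). F39E9.7 (chromosome II, 3306144 to 3307505), 2394 bp from the lincRNA F39E9.10, was at 6.64, 8.86 and 7.45 CPM in *age-1* against 27.5, 21 and 19.8 CPM in the double mutant (log2 fold change 1.57, adjusted p = 0.00198). In each, all double mutant populations lay above all *age-1* populations. On chromosome X, the pseudogene ZK402.3 lies between the coding genes ZK402.5 and ZK402.1, 666 bp from the first and 1260 bp from the second. ZK402.3 was at 1.28, 0.889 and 0.721 CPM in *age-1* against 5.99, 5.94 and 6.97 CPM in the double mutant (log2 fold change 2.71, adjusted p = 0.0012). ZK402.5 was at 0.251, 0.27 and 0.399 CPM in *age-1* against 2.38, 2.69 and 3.22 CPM in the double mutant (log2 fold change 3.16, adjusted p = 0.00194). ZK402.1, the least abundant of the 3, was at 0.116 to 0.132 CPM in *age-1* against 0.516 to 0.724 CPM in the double mutant (log2 fold change 2.34, adjusted p = 0.047), and its call was lost in each of the 6 fits that left out 1 library (adjusted p up to 0.212 without *age-1* replicate 3). F56D6.16 and ZK380.5, also pseudogenes, had log2 fold changes of 2.19 and 3.68 (adjusted p = 0.0149 and 0.0149). Their calls were lost in 2 and 3 of the 6 fits that left out 1 library (up to 0.0968 without *age-1* replicate 1 and 0.0994 without *age-1* replicate 1). The count table does not say how reads shared between near-identical copies were split, so the level of a pseudogene can include reads of its relatives. In all, 16 of the 68 called genes with an annotated position had another called gene within 5000 bp, in 7 groups of neighbours, and the members of a group moved in the same direction.

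Of the genes marked as ERGO-1 or RRF-3 targets, 10 rose. The marks come from the study's small RNA lists, made in the same strains, so they are not independent of these animals. Of 28 marked genes whose antisense small RNAs fell with the loss of RDE-4 in each background, 27 were tested, and 10 rose and none fell, against 0.317% of all genes. Their median log2 fold change was 0.82, and 24 of 27 were above 0. Between *rde-4* and WT, 10 genes of the list rose, not all of them the same, and the median was 0.86. F55C9.5, higher in the *age-1* background, was not called there (adjusted p = 0.0625). Relative to their mean in *age-1*, the mean log2 level of the 27 genes was 1.04, 1.18 and 1.26 in the 3 *age-1; rde-4* populations and −0.20, 0.11 and 0.09 in the *age-1* populations, so replicate 1 was no exception here. Without it, 7 of the genes were called higher with a median of 0.89. Beside ZK402.3, ZK402.5, ZK380.5, W04B5.1, H09G03.1, F39E9.7 and C44B11.6, the higher genes of this list were K02E2.6, F55C9.5 and *fbxa-52*. K02E2.6 was at 10.1 to 14.6 CPM in *age-1* against 21.4 to 29.6 CPM in the double mutant (log2 fold change 1.05, adjusted p = 0.0368), and F55C9.5 at 0.0528 to 0.206 CPM in *age-1* against 0.67 to 1.31 CPM in the double mutant (log2 fold change 2.78, adjusted p = 0.0353). *fbxa-52*, which encodes an F-box protein, held 0, 3 and 0 counts in *age-1* and 54, 28 and 50 counts in the double mutant, a ratio of 41.2 after scaling with a 95% exact interval of 13.8 to 202 that covers counting error only (adjusted p = 0.047). Each of these 3 kept its call in 1 of the 6 fits that left out 1 library (adjusted p up to 0.198 without *age-1* replicate 3, 0.114 without *age-1* replicate 2 and 0.199 without *age-1* replicate 3).

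The wider set of genes depleted of antisense small RNAs in both *rde-4* strains held 23 of the 53 higher genes. It has 868 members, of which 836 were tested, and was again made in these strains. The marked genes of the paragraph above, with their 10 higher genes, are part of it. In the *age-1* background 23 of the 836 rose (2.75%, against 0.317% of all genes) and 1 fell. At an unadjusted p under 0.05 there were 125 above and 38 below, where 5.22% and 5.82% of all genes passed. The median log2 fold change was 0.15 in the *age-1* background and 1.37 between *rde-4* and WT, where 293 rose. Relative to *age-1*, the mean level of the list was 0.55, 0.12 and −0.04 in the 3 *age-1; rde-4* populations and −0.13, 0.25 and −0.12 in the *age-1* populations, and replicate 1 was the highest of the 6. Without this population the median was −0.01, with 19 genes higher and 4 lower. The interaction of the mutations was called for 2 of the 836 genes.

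Among coding genes, *saeg-2* had the smallest adjusted p of the higher genes. It encodes a nuclear protein that acts with the cGMP-dependent kinase EGL-4, and it is on the list of genes depleted of antisense small RNAs by the loss of RDE-4 in the WT background alone. It was at 8.87, 9.17 and 8.21 CPM in *age-1* against 44.2, 46 and 53.5 CPM in the double mutant (log2 fold change 2.45, SE 0.13, adjusted p = 9.48e-07). The spread within each group was small beside this step, and the log2 fold change between *rde-4* and WT was 2.58 (adjusted p = 3.65e-07). Y36E3A.2 (chromosome V, 15426041 to 15426970), a coding gene without a name, was at 0.33, 0.644 and 0.296 CPM in *age-1* against 7.93, 6.57 and 7.59 CPM in the double mutant (log2 fold change 4.11, adjusted p = 0.00408). It overlaps *fbxa-209* on the other strand, whose mean level was 0.867 CPM (*age-1*) and 0.453 CPM (double mutant). Whether strand was used in counting is not stated, so reads of overlapping genes on opposite strands may not have been told apart. *saeg-2* overlaps the noncoding RNA T23G5.10, which was at 0.412 CPM (*age-1*) and 1.38 CPM (double mutant). ZK384.4, an identifier with no entry in the annotation used, was at 2.27, 5.96 and 4.68 CPM in *age-1* against 24.5, 19.2 and 20.5 CPM in the double mutant (log2 fold change 2.31, adjusted p = 0.00606). These 3 are core calls.

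Of the higher coding genes, 6 are on the lists of genes with raised antisense small RNAs in *age-1*, which were made in these strains. The small RNA lists overlap, and 26 of the 53 higher genes are on any of them. These 6 are therefore not all separate from the 23 depleted of antisense small RNAs without RDE-4. For 5 of the 6, the small RNAs raised in *age-1* were also lost without RDE-4. These 5 are from 944 tested genes (5 higher and 0 lower, median 0.10, against 1.34 between *rde-4* and WT). The share called higher was 0.53%, beside 0.317% of all genes, so the values below describe these genes and not the list. Without replicate 1 of the double mutant 5 were higher and 3 lower, and DESeq2, which called 285 genes higher and 158 lower in all, called 57 and 7 of the list. C06A5.2 was at 0.884, 1.04 and 0.618 CPM in *age-1* against 6.38, 4.43 and 4.24 CPM in the double mutant (log2 fold change 2.56, adjusted p = 0.00784). *tag-191* was at 1.64, 3.06 and 1.37 CPM in *age-1* against 11.5, 8.31 and 8.29 CPM in the double mutant (log2 fold change 2.21, adjusted p = 0.0315). W08E3.4 was at 4.06, 4.89 and 3.99 CPM in *age-1* against 26.3, 17.2 and 14.5 CPM in the double mutant (log2 fold change 2.16, adjusted p = 0.0353). The groups did not overlap in any of the 3. In WT, C06A5.2 was at 0.489, 0.741 and 0.479 CPM, *tag-191* at 0.434, 0.659 and 0.386 CPM and W08E3.4 at 1.23, 2.17 and 0.917 CPM, so that *age-1* lay above WT in *tag-191* and W08E3.4 and overlapped it in C06A5.2. C25D7.16 overlaps *mcm-3* on the other strand, which was at 303 CPM (*age-1*) and 297 CPM (double mutant). C25D7.16, Y69F12A.1 and C15H7.4, the last from the 238 tested genes not marked as losing these small RNAs (0.42% higher), rose with log2 fold changes of 2.06, 1.97 and 2.56 (adjusted p = 0.0262, 0.0249 and 0.0238). The level of C25D7.16 in replicate 1 of *age-1; rde-4* was 13.4 CPM, against 8.79 and 7.69 CPM in the others, and all 6 genes but Y69F12A.1 were highest in that population. They kept their calls in 0 to 4 of the 6 fits that left out 1 library. The largest adjusted p among those fits was 0.0663 without *age-1* replicate 1 for C06A5.2, 0.154 without *age-1* replicate 1 for *tag-191*, 0.17 without *age-1* replicate 3 for W08E3.4, 0.141 without *age-1* replicate 1 for C25D7.16, 0.141 without *age-1* replicate 1 for Y69F12A.1 and 0.135 without *age-1* replicate 1 for C15H7.4.

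Most higher genes were also higher in the independent *rde-4* libraries than in WT. Of the 53, 34 were called higher in *rde-4* than in WT (64.2%, against 3.63% of all genes tested), none was called lower, and the median log2 fold change was 1.78 there. The populations are separate, but both comparisons used 1 model with a shared estimate of each gene's spread. The calls in the *age-1* and the WT background are therefore not fully independent. Of the 23 depleted of antisense small RNAs, 22 were called higher in *rde-4* than in WT, with a median of 2.63. Of the other 30, 12 were, with a median of 0.36. Of the 18 lower genes, 4 were also called lower in *rde-4* than in WT (22.2%, against 0.866%), namely *rde-4* itself, *dct-18*, *clec-204* and C16C8.20. The interaction, the difference between the log2 fold changes in the 2 backgrounds, was called for 19 genes over the whole table, 9 higher (0.0538%) and 10 lower (0.0597%, together 0.113% of those tested), and 4 of the 71 called genes were among them.

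**Figure D3:**
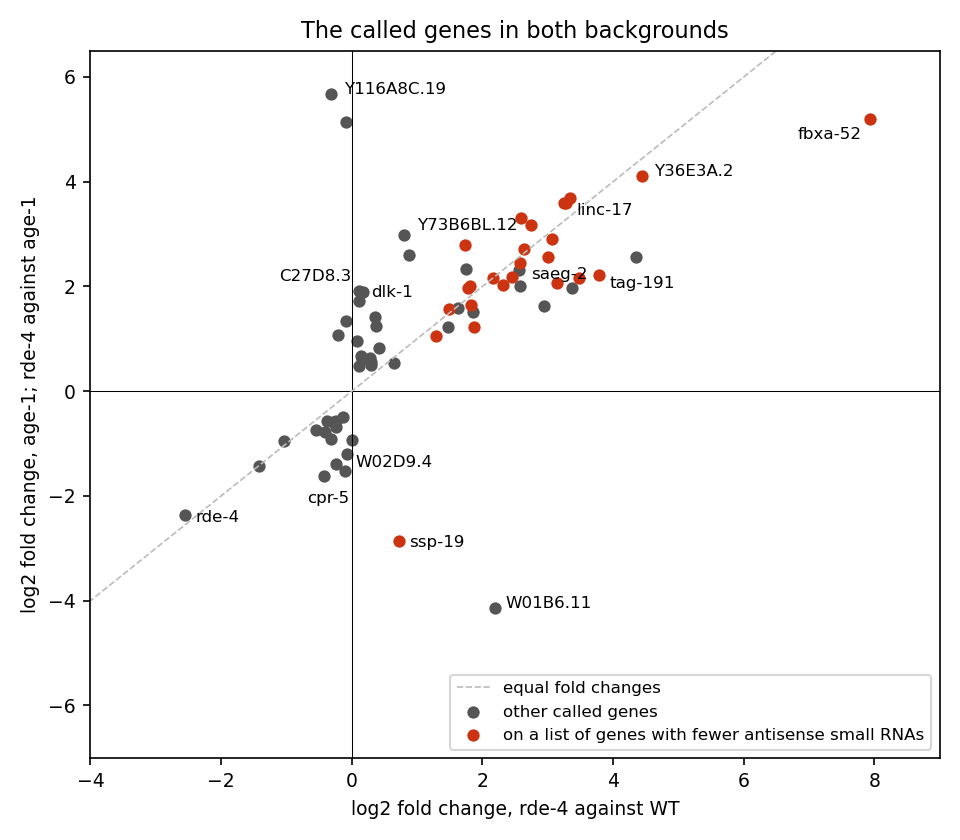
The 71 called genes by their log2 fold change between *rde-4* and WT (horizontal axis) and that of the double mutant over *age-1* (vertical axis), from separate libraries. Red points are genes depleted of antisense small RNAs without RDE-4, and the dashed line marks equal fold changes. *dlk-1*, C27D8.3 and W02D9.4 lie close to 0 on the horizontal axis, and *saeg-2* and *rde-4* lie close to the line.

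In 4 called genes the interaction was called too, and none of them was called between *rde-4* and WT. *dlk-1* (F33E2.2, chromosome I, 12565800 to 12572801) encodes a mitogen-activated protein kinase kinase kinase with a leucine zipper, known for its role in axon regeneration and synapse formation. It was at 21, 20.4 and 17.4 CPM in *age-1* against 51.9, 80.3 and 62.5 CPM in the double mutant (log2 fold change 1.73, SE 0.16, adjusted p = 0.000621). In WT it was at 14.2, 18 and 15.6 CPM and in *rde-4* at 15.7, 17.5 and 18.2 CPM, so that the double mutant populations stood above the other 9. The interaction was 1.62 (SE 0.23, adjusted p = 0.0175). C27D8.3 (chromosome IV, 12706700 to 12711744), which has no gene name, was at 15.4, 14.6 and 16.6 CPM in *age-1* against 46.9, 79.4 and 48.1 CPM in the double mutant (log2 fold change 1.90, adjusted p = 0.00141), and at 13.6, 18.5 and 13.3 CPM in WT and 15, 18.2 and 17.8 CPM in *rde-4*. Its interaction was 1.74 (SE 0.29, adjusted p = 0.043). C27D8.3 overlaps 2 genes on the opposite strand, C27D8.4 and C27D8.2, which were at 47.3 CPM (*age-1*) and 54.5 CPM (double mutant) and at 17.5 CPM (*age-1*) and 20.9 CPM (double mutant) in the mean.

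W02D9.4 and *ssp-19* went down. W02D9.4 (chromosome I, 12537903 to 12538986), 26814 bp from *dlk-1*, was at 29.6, 22.9 and 27.1 CPM in *age-1* against 8.12, 10.2 and 9.37 CPM in the double mutant (log2 fold change −1.53, adjusted p = 0.00105). It was at 38.3, 27.3 and 32.2 CPM in WT and 32.9, 27.8 and 30.2 CPM in *rde-4*, and the interaction was −1.42 (SE 0.22, adjusted p = 0.0284). *dlk-1*, C27D8.3 and W02D9.4 are core calls. The counts do not show whether the double mutant strain carries another sequence difference near *dlk-1* and W02D9.4, so the loss of RDE-4 and such a linked difference cannot be told apart for these neighbours. *ssp-19* (C55C2.2, chromosome I, 2562668 to 2562997) belongs to a family of small sperm-specific proteins with a major sperm protein (MSP) domain. It was at 6.58, 5.56 and 5.42 CPM in *age-1* against 0.982, 0.804 and 0.624 CPM in the double mutant (log2 fold change −2.86, adjusted p = 0.0113). In WT it was at 1.22, 4.77 and 2.87 CPM and in *rde-4* at 5.74, 5.73 and 3.13 CPM, and the interaction was −3.58 (SE 0.58, adjusted p = 0.0415). All 3 double mutant populations were below 1 CPM, under every one of the other 9. *ssp-19* is the 1 lower gene among the 836 depleted of antisense small RNAs. Its call was kept in 3 of 6 fits that left out 1 library (adjusted p up to 0.0737 without *age-1; rde-4* replicate 2).

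**Figure D4:**
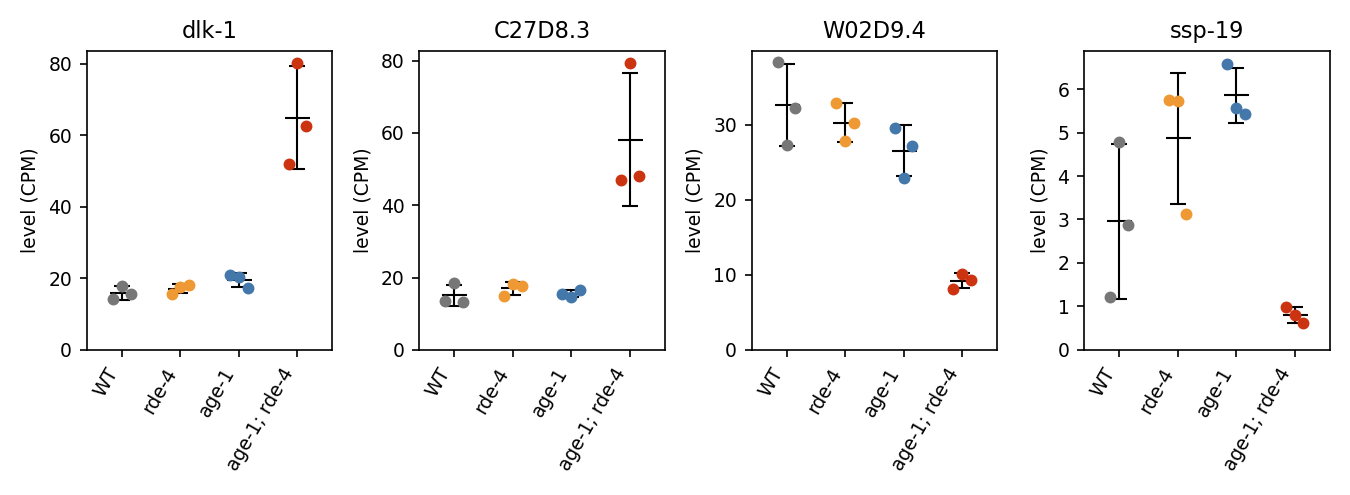
Level in CPM in each of the 12 populations for *dlk-1*, C27D8.3, W02D9.4 and *ssp-19*, with the mean and SD of each group of 3 (bars). The first 3 groups overlap in the panels of *dlk-1* and C27D8.3 and the double mutant lies above them, and in the panels of W02D9.4 and *ssp-19* the double mutant lies below all other populations.

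Some histone genes, 6 in number, rose by small amounts. Histone mRNAs of the replication-dependent kind carry no poly(A) tail and can be measured in libraries made by depletion of ribosomal RNA. Of 72 histone genes tested, 6 were called higher and none lower (against 0.317% of all genes), 28 were higher and none lower at an unadjusted p under 0.05, and the median log2 fold change was 0.16. *his-67*, *his-64*, *his-60* and *his-38* encode histone H4, *his-63* histone H3 and *his-61* histone H2A. *his-64* was at 1616, 1598 and 1658 CPM in *age-1* against 2683, 2571 and 2255 CPM in the double mutant (log2 fold change 0.62, adjusted p = 0.0353). *his-60* was at 1297, 1338 and 1410.0 CPM in *age-1* against 2023, 1838 and 1819 CPM in the double mutant (log2 fold change 0.49, adjusted p = 0.0308). *his-67* was at 392, 361 and 388 CPM in *age-1* against 633, 573 and 608 CPM in the double mutant (log2 fold change 0.67, adjusted p = 0.0226). The steps were thus under 2-fold but larger than the spread within a group. *his-63*, 255 bp from *his-64*, *his-38* and *his-61*, 1464 bp from *his-60*, had log2 fold changes of 0.56, 0.61 and 0.50 (adjusted p = 0.0192, 0.0368 and 0.047). By class, with classes chosen after the values were seen, 9 of 16 H4 genes, 6 of 15 H3 genes, 7 of 16 H2A genes and 5 of 16 H2B genes were higher at an unadjusted p under 0.05. Many histone genes are near-identical copies, and how reads that fit several of them were counted is not stated, so values of single members are uncertain. Relative to *age-1*, the mean log2 level of the 72 genes was −0.04, 0.36 and 0.29 in the 3 double mutant populations, so replicate 1 stayed with *age-1* over the list although it was raised in the called genes. Without replicate 1 there were 13 calls and a median of 0.36. Each of the 6 calls was lost in 4 or 5 of the 6 fits that left out 1 library (adjusted p up to 0.204 without *age-1; rde-4* replicate 2). Between *rde-4* and WT, 2 histone genes rose and 13 fell, with a median of −0.13.

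Other core calls among the coding genes were F25E5.1 and F33H2.3. F25E5.1 (chromosome V, 7465884 to 7471288) was at 32.7, 29.9 and 29 CPM in *age-1* against 72.4, 110.2 and 62.4 CPM in the double mutant (log2 fold change 1.42, adjusted p = 0.00407). F33H2.3 (chromosome I, 15034515 to 15035467) was at 45.5, 44.2 and 40.5 CPM in *age-1* against 77.7, 78.3 and 73.6 CPM in the double mutant (log2 fold change 0.82, adjusted p = 0.00234), the smallest fold of the core. Y73B6BL.12 (chromosome IV, 6317047 to 6317457) was at 0.844, 2.24 and 1.8 CPM in *age-1* against 10.1, 13.7 and 15 CPM in the double mutant (log2 fold change 2.99, adjusted p = 0.00234), with WT at 3, 2.17 and 1.89 CPM and *rde-4* at 2.75, 4.62 and 4.96 CPM, and the interaction was not called, at 2.18 (SE 0.48, adjusted p = 0.141).

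The lower genes were fewer and their median fold was smaller. *cpr-5*, a cathepsin B-like cysteine protease, was at 140.1, 130.3 and 181 CPM in *age-1* against 53.3, 36.9 and 56.7 CPM in the double mutant (log2 fold change −1.62, adjusted p = 0.00603). It is a core call, and the only one among 21 tested cathepsin and aspartyl protease genes, of which 9 were lower and none higher at an unadjusted p under 0.05 (median −0.23). None of 71 genes of fatty acid and acyl metabolism and none of 181 detoxification genes was called. At an unadjusted p under 0.05, 2 of the former were higher and 6 lower, and 3 and 12 of the latter, and DESeq2 called 2 higher of the former, and 1 higher and 2 lower of the latter. *pept-1*, the intestinal transporter of short peptides, was at 86.3, 81.8 and 86.1 CPM in *age-1* against 59.8, 38.2 and 51 CPM in the double mutant (log2 fold change −0.77, adjusted p = 0.0368). *pho-1*, an acid phosphatase of the intestine, was at 71.3, 77.9 and 77 CPM in *age-1* against 54.5, 44.1 and 51.5 CPM in the double mutant (log2 fold change −0.59, adjusted p = 0.027). Neither was called between *rde-4* and WT, where their log2 fold changes were −0.40 (adjusted p = 0.159) and −0.29 (adjusted p = 0.151). *pho-1* overlaps EGAP2.1 on the other strand, which was at 8.94 CPM (*age-1*) and 10.8 CPM (double mutant). The 4 intestine markers *elt-2*, *ges-1*, *ifb-2* and *act-5* had a mean log2 level of −0.83, −0.22 and −0.15 relative to *age-1* in the 3 *age-1; rde-4* populations, and none was called, so all 3 were below *age-1* and replicate 1 the most. Their part in these results was not tested.

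Other lower genes had varied roles. *ads-1*, the synthase of ether lipids, was at 159, 159 and 171 CPM in *age-1* against 114, 103 and 111 CPM in the double mutant (log2 fold change −0.57, adjusted p = 0.0449), and *pmp-5*, an ABC transporter of the peroxisome, was at 201, 212 and 206.8 CPM in *age-1* against 147, 149 and 143 CPM in the double mutant (log2 fold change −0.50, adjusted p = 0.0321). *trap-2*, a subunit of the translocon-associated protein complex, was at 69.7 to 71.4 CPM in *age-1* against 42.4 to 51.8 CPM in the double mutant (log2 fold change −0.58, adjusted p = 0.0363). *ncl-1*, a B-box protein that limits nucleolus size and ribosomal RNA synthesis, was at 141, 127 and 119.8 CPM in *age-1* against 49.4, 81.2 and 73.7 CPM in the double mutant (log2 fold change −0.93, adjusted p = 0.0325). In WT *ncl-1* was at 71.9, 78.3 and 88.6 CPM, nearer to the double mutant than to *age-1*. The same order was seen for *txdc-12.1*, a thioredoxin domain protein, which was at 33.6, 33.4 and 26.2 CPM in *age-1*, 10.6, 14.1 and 10.8 CPM in WT and 16.07, 13.9 and 10.7 CPM in the double mutant (log2 fold change −1.20, adjusted p = 0.0181). T09B4.8, *ifp-1* (an intermediate filament protein), *nep-22* (a neprilysin-like peptidase), *clec-204* (a C-type lectin), *dct-18* and C16C8.20 had log2 fold changes of −0.91, −1.38, −0.69, −1.42, −0.75 and −0.94, with adjusted p from 0.0123 to 0.0449. The pseudogene W01B6.11 held 23, 58 and 58 counts in *age-1* and 2, 4 and 2 counts in the double mutant (adjusted p = 0.0378). Apart from *rde-4*, *cpr-5* and W02D9.4, each lower gene lost its call in 3 to 6 of the 6 fits that left out 1 library. The adjusted p reached 0.204 without *age-1; rde-4* replicate 2 for C16C8.20, 0.222 without *age-1; rde-4* replicate 2 for *ads-1*, 0.151 without *age-1* replicate 3 for *pept-1*, 0.137 without *age-1* replicate 2 for *pho-1*, 0.145 without *age-1* replicate 2 for *pmp-5*, 0.141 without *age-1* replicate 1 for *ncl-1* and 0.0872 without *age-1* replicate 1 for *dct-18*, and the largest of the others was 0.222 without *age-1; rde-4* replicate 2 for *ifp-1*.

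Genes of the embryo and of sperm had other levels in replicates 2 and 3 of the double mutant than in replicate 1, and no early embryo, *msp* or spermatogenesis gene was called. Of 14 early embryo genes, among them the endoderm regulators *end-1* and *end-3* and the zygotic transcript *pes-10*, 10 were tested. None was called, 5 were higher at an unadjusted p under 0.05, and the median log2 fold change was 2.29. Without replicate 1, 12 were tested and 2 called higher, and DESeq2 called 1 of the 10. Their summed level was 5.79, 4.21 and 6.92 CPM in *age-1*, 3.68, 23.5 and 18.4 CPM in the double mutant and 10.1, 9 and 11 CPM in WT, so that replicate 1 was below, and replicates 2 and 3 above, all *age-1* and WT populations. *pes-10* was at 0.224, 0 and 0.593 CPM in *age-1* against 0.429, 4.02 and 2.37 CPM in the double mutant (log2 fold change 3.05, adjusted p = 0.217). *tbx-38*, a T-box factor, was at 0, 0.0258 and 0 CPM in *age-1* against 0.0368, 0.804 and 0.673 CPM in the double mutant (log2 fold change 5.63, adjusted p = 0.134). At levels this low in *age-1* the fitted folds depend on the prior count, which also limits the median of these genes.

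The *msp* genes, which encode the major sperm proteins that move and signal from nematode sperm, had lower levels. Of 33 tested, none was called, 8 were lower at an unadjusted p under 0.05, 32 had a log2 fold change below 0, and the median was −0.92. Their summed level was 2319, 2306 and 2174 CPM in *age-1*, 1955, 860.4 and 818 CPM in the double mutant, 428, 1352 and 631 CPM in WT and 1573, 1466 and 563 CPM for *rde-4*. All double mutant populations were below *age-1*, replicate 1 by the least, and replicates 2 and 3 lay within the range of WT. Without replicate 1, 2 *msp* genes were called lower and the median was −1.50. Of 62 tested genes of the sperm-specific protein and MSP-domain families, *ssp-19* was the only one called. The 49 spermatogenesis genes had no call and a median of −0.01, and the 25 oocyte and eggshell genes had none and one of 0.01. These medians join populations that differed. Relative to *age-1*, the mean log2 level in the 3 double mutant populations was 0.28, −0.06 and −0.23 for the spermatogenesis genes. For the oocyte and eggshell genes it was −0.51, 0.22 and 0.17. Without replicate 1 the medians were −0.26 and 0.22, in that order. The part of these shifts in the single-gene results was not tested.

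The *fbxb* and *sdz* families showed the same split, and they were picked out after their values were seen, from 73 families of 20 or more tested genes. Of 92 *fbxb* genes (F-box proteins), 42 were higher and none lower at an unadjusted p under 0.05, none was called, and the median log2 fold change was 1.92. Without replicate 1 of the double mutant, 6 were called higher, and DESeq2 called 18. Their mean log2 level relative to *age-1* was 0.11, 1.94 and 1.59 in the 3 *age-1; rde-4* populations. The summed level was 24.3, 23 and 26.4 CPM in *age-1*, 28.3, 72.1 and 60.5 CPM in the double mutant and 52.3, 37.1 and 51.4 CPM in WT. Of 30 *sdz* genes, named for zygotic transcripts that depend on the maternal factor SKN-1, 16 were higher and none lower at that threshold, with a median of 1.80 and mean levels of −0.10, 1.70 and 1.46. None was called, 4 were called higher without replicate 1, and DESeq2 called 6. The genes of both families are those that passed the count filter, which a gene could do through the groups where it was higher. Some were near 0 counts in *age-1*. *fbxb-47* held 0, 0 and 0 counts in *age-1* and 12, 20 and 8 in the double mutant. For *fbxb-48* the counts were 0, 0 and 0 against 5, 60 and 59. Fitted folds of such genes depend on the prior count, and this limits the medians. The 391 genes of the F-box list as a whole (297 tested) held 1 call, *fbxa-52* (0.337% of those tested, near the share over all genes), against 9 without replicate 1 (307 tested) and 23 with DESeq2.

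**Figure D5:**
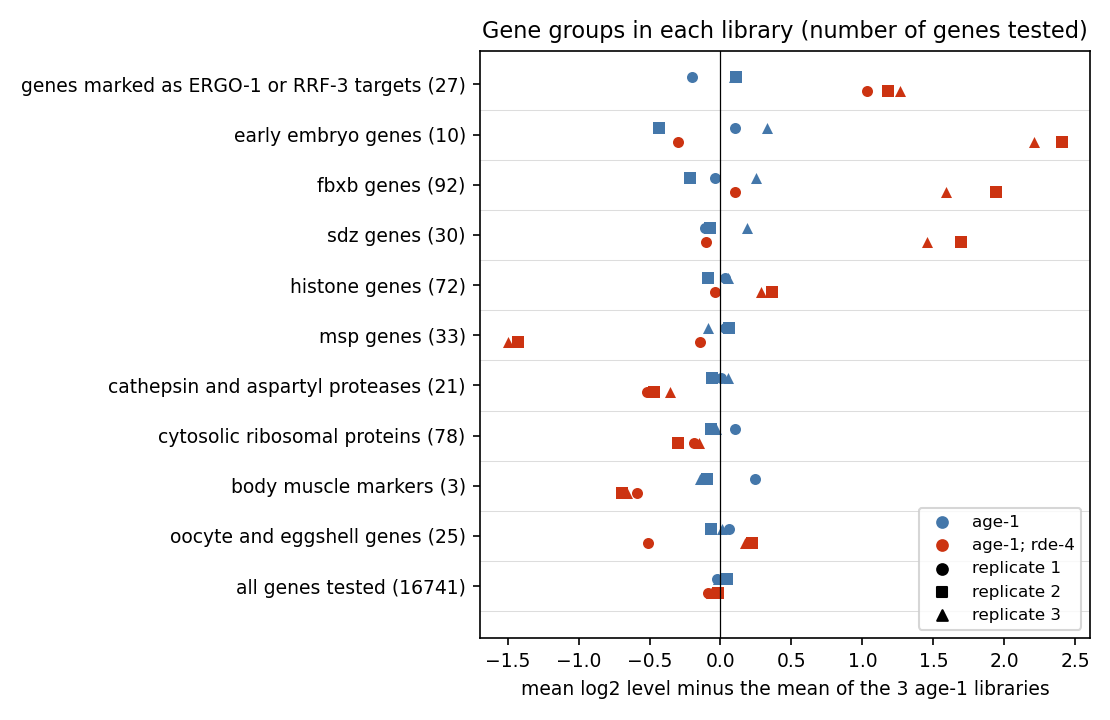
Mean log2 level of the tested genes of each group in each population, minus the mean of the 3 *age-1* populations, for *age-1* (blue) and *age-1; rde-4* (red), with the replicate as the marker. The 27 marked ERGO-1 or RRF-3 targets were higher in all 3 double mutant populations, whereas early embryo, *fbxb*, *sdz*, histone and *msp* genes differed from *age-1* mostly in replicates 2 and 3, with replicate 1 near *age-1*.

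Some sets of transcripts lay lower in all 3 double mutant populations without a call. The body muscle markers *myo-3*, *unc-54* and *unc-15* had a summed level of 828, 663 and 617 CPM in *age-1* against 451, 428 and 440.0 CPM in the double mutant, and all 3 were lower at an unadjusted p under 0.05. The WT populations were at 245, 534 and 350.3 CPM, on both sides of the double mutant. The pharynx marker *myo-2* was at −3.18, −1.07 and −1.58 on the log2 scale relative to *age-1* in the 3 double mutant populations, without a call. Of 78 cytosolic ribosomal protein genes, 29 were lower and none higher at that threshold, with a median of −0.17, beside −0.06 over all genes.

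The other genes of RNAi and of IIS had no call at the mRNA level. Among 19 genes of double-stranded RNA processing and primary siRNAs, *rde-4* was the only one called, and the log2 fold changes of *dcr-1* (Dicer), *rde-1* (the Argonaute of the exogenous pathway), *ergo-1* and *rrf-3* were −0.10, 0.03, −0.18 and −0.08. *alg-3* was at 30.7, 42.2 and 32.5 CPM in *age-1* against 37.8, 30.7 and 26.5 CPM in the double mutant (log2 fold change −0.15, adjusted p = 0.936), and *alg-4* had a log2 fold change of −0.25 (adjusted p = 0.881). None of 34 genes of secondary siRNAs and Argonautes and none of 11 genes of RNAi transport and response was called, with medians of −0.07 and −0.15. Without replicate 1 of the double mutant these medians were 0.05 and −0.03. None of 18 IIS genes was called either (median −0.05, and 0.09 without replicate 1 of the double mutant). Their mean log2 level relative to *age-1* was −0.39, 0.05 and 0.01 in the 3 double mutant populations. At an unadjusted p under 0.05, 2 of the IIS genes were lower, *pdk-1* and *sgk-1*, with log2 fold changes of −0.52 and −0.39. The transcription factor gene *daf-16* was at 36.8, 34.1 and 34.7 CPM in *age-1* against 27.2, 32.5 and 33.4 CPM in the double mutant (log2 fold change −0.18, adjusted p = 0.579). None of 6 genes of Eph receptor signaling was called. The Eph receptor gene *vab-1* was at 105, 105 and 114 CPM in *age-1* against 73.6, 145 and 139 CPM in the double mutant (log2 fold change 0.14, adjusted p = 0.87). In *vab-1*, replicate 1 of *age-1; rde-4* was the lowest and replicates 2 and 3 the highest of the 6 populations. Of 25 genes known to be activated by DAF-16 and 15 known to be repressed by it, none was called, with medians of −0.12 and 0.03. DESeq2 called none of the secondary siRNA, transport and IIS genes, 1 gene of Eph receptor signaling and 1 of the DAF-16-repressed genes higher, and 1 DAF-16-activated gene lower.

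The MSP-domain genes *dct-9*, *ssp-16* and *melo-3* had higher levels in each double mutant population without reaching the threshold. *dct-9* was at 4.41, 5.03 and 2.46 CPM in *age-1* against 14.7, 9.25 and 7.95 CPM in the double mutant (log2 fold change 1.42, adjusted p = 0.189). *ssp-16* was at 5.81, 7.4 and 5.89 CPM in *age-1* against 23.4, 12.3 and 11.6 CPM in the double mutant (log2 fold change 1.31, adjusted p = 0.243). *melo-3* was at 8.01, 12.3 and 8.97 CPM in *age-1* against 21.9, 15 and 12.4 CPM in the double mutant (log2 fold change 0.75, adjusted p = 0.485). In all 3 the groups did not overlap, and replicate 1 of the double mutant was the highest. By edgeR's quasi-likelihood test the unadjusted p was 0.0045, 0.0077 and 0.063, in that order. *dct-9* and *ssp-16* were each called in 1 of the 14 alternative fits (adjusted p = 0.0103 and 0.0231), and *melo-3* in none. In WT, *dct-9* was at 0.733, 1.81 and 1.22 CPM and *ssp-16* at 0.991, 3 and 1.58 CPM, and in *rde-4* at 10.9, 11.7 and 4.65 CPM and 16.8, 16.3 and 7.15 CPM, so *age-1* alone was already above WT.

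As a set, the higher genes were short and of low level before the loss of RDE-4. The 35 coding genes among the 53 had a median coding length of 621 bases and a median of 3 exons, against 1059 bases and 6 exons over 15282 coding genes tested, and the 17 lower coding genes had 1332 bases and 6 exons. The 35 include the 6 called histone genes, each with 1 exon and 309 to 408 coding bases. The median level in *age-1* was 3.52 CPM for the higher genes, 74.2 CPM for the lower genes and 6.84 CPM over all genes tested. The share under 1 CPM in *age-1* was 30.2% of the higher genes, near the 25.8% of all genes tested. By chromosome, 14 of the 53 higher genes lay on IV (26.4%, against 16.8% of the genes tested), and the others were spread over I, II, III, V and X with 5 to 9 genes each. The genes on IV include the neighbours *his-63* and *his-64*, *his-60* and *his-61*, and *linc-41* and *linc-21*, so they are not all separate places. These are descriptions of the called genes and were not tested.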

How the data were processed

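The mRNA of 12 whole-worm populations was sequenced after depletion of ribosomal RNA, in strand-specific libraries. The authors aligned reads to WBcel235 (HISAT2 2.0.5), used StringTie for quantification, and deposited whole-number read counts per gene without normalization. How reads that fit several genes were counted is not given in the sources used here. Of 46653 identifiers, 46181 were matched to the Ensembl annotation of WBcel235.

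Tests were run with edgeR 4.0.16 under R 4.3.3 (filterByExpr, TMM, glmQLFit, glmQLFTest, two-sided) in 1 model of the 4 groups. The contrasts were double mutant minus *age-1*, *rde-4* minus WT and their difference, with Benjamini-Hochberg adjustment over 16741 genes and a threshold of 0.05. The populations were independent biological replicates, and their counts differed by more than sampling noise in every pair (chi-square per gene 36.3 to 255). Intervals on counts cover counting error only. The alternatives were RLE scaling, DESeq2 1.42.0, edgeR's exact test, the 6 libraries alone, testing without a filter or only at 50 normalized counts or more in the mean, coding genes alone, the replicate number as a block, and leaving out 1 library at a time. The method was tested on simulated data.

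The members, the gene lists and the rule for named genes were chosen with earlier results of these data known. Named were the 15 higher and 15 lower called genes with the largest fold change among those with groups that do not overlap and a mean of 50 normalized counts or more, the core calls, up to 6 called members of each list, 9 genes of the study (1 more is not reported here), and the 6 genes with the smallest adjusted p of the interaction. Genes named beyond this rule were chosen after their values were seen. Other lists (vitellogenin, collagen, molting, lectin and antimicrobial, infection and intracellular pathogen response, detoxification, heat shock, fatty acid, MATH and BATH, nuclear hormone receptor, insulin-like peptide and neuropeptide genes, and markers of hypodermis, neurons, pharynx, germ cells and males) held no call but *clec-204*. At an unadjusted p under 0.05, 23 of 135 tested collagen genes were lower and 3 higher. Of 120 tested C-type lectin genes, 16 were lower and 4 higher, where 5.82% (lower) and 5.22% (higher) of all genes passed. DESeq2 called 6 collagen genes lower and 2 higher, and 3 lectin genes lower. Small RNA lists came from sheets of the study's supplement that were held whole, by membership alone, and small RNA reads were not used here.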

Additional observations from a re-analysis of the deposited data

Results flagged for a closer look

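The following genes had log2 fold changes between *rde-4* mutant and *rde-4* intact strains that differed between the *age-1* and the WT background by edgeR's test of the interaction. *dlk-1*, C27D8.3, W02D9.4 and *ssp-19* differed between the double mutant and *age-1*, with interactions of 1.62 (adjusted p = 0.0175), 1.74 (adjusted p = 0.043), −1.42 (adjusted p = 0.0284) and −3.58 (adjusted p = 0.0415). Their values in the 12 populations are given above.

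A further 6 genes, not called in the double mutant against *age-1*, changed between *rde-4* and WT. C32D5.8 was at 118, 116.2 and 106 CPM (WT), 4.74, 5.27 and 4.44 CPM (*rde-4*), 132, 138 and 137 CPM (*age-1*) and 165, 146 and 141 CPM (double mutant), an interaction of 4.71 (adjusted p = 3.42e-09). Y58A7A.3 was at 0.095, 0.535 and 0 CPM (WT), 21.3, 20.5 and 18.3 CPM (*rde-4*), 12.7, 13 and 12.8 CPM (*age-1*) and 14.5, 19 and 18.6 CPM (double mutant), an interaction of −6.13 (adjusted p = 0.0144). *fbxa-193* was at 14.3, 11 and 11.1 CPM (WT), 2.25, 2.19 and 2.12 CPM (*rde-4*), 1.6, 2.14 and 2.42 CPM (*age-1*) and 1.39, 1.92 and 1.75 CPM (double mutant), an interaction of 2.19 (adjusted p = 0.0144). *spig-5* was at 0.095, 0.137 and 0.16 CPM (WT), 2.67, 3.73 and 1.51 CPM (*rde-4*), 3.27, 6.85 and 5.37 CPM (*age-1*) and 3.28, 4.77 and 5.52 CPM (double mutant), an interaction of −4.51 (adjusted p = 0.00952). F57A10.2 was at 0.0814, 0.151 and 0.133 CPM (WT), 1.19, 1.11 and 0.883 CPM (*rde-4*), 2.12, 3.1 and 2.41 CPM (*age-1*) and 1.44, 2.2 and 1.19 CPM (double mutant), an interaction of −3.77 (adjusted p = 0.00952). *fbxb-7* was at 9.38, 6.65 and 6.83 CPM (WT), 3.29, 3.73 and 3.4 CPM (*rde-4*), 5.32, 5.7 and 5.37 CPM (*age-1*) and 9.01, 10.5 and 9.39 CPM (double mutant), an interaction of 1.95 (adjusted p = 0.00952). WT stood below the other 3 groups in Y58A7A.3, *spig-5* and F57A10.2 and above them in *fbxa-193*, and *rde-4* stood below them in C32D5.8 and *fbxb-7*. The counts do not show whether a strain carries another sequence difference at these genes. Such a difference and the *rde-4* mutation cannot be told apart here.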

How the results depend on the processing

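The 53 higher and 18 lower genes became 285 and 158 with DESeq2, 204 and 99 with edgeR's exact test, 27 and 7 without a filter, 73 and 11 at 50 normalized counts or more in the mean, 36 and 13 in the 6 libraries alone, 18 and 8 with coding genes alone (fewer genes tested), 64 and 16 with RLE scaling, and 874 and 975 at an unadjusted p under 0.05. Leaving out 1 library gave 17 to 122 higher and 3 to 49 lower genes. The 23 higher genes among those with fewer antisense small RNAs became 68, 49, 15, 24, 20 and 6 in the same order, 27 with RLE scaling, and 10 to 19 without 1 library. The 19 genes with an interaction became 337 with DESeq2, 10 with no filter, 19 with a mean of 50 normalized counts, 20 with coding genes alone, 25 with RLE scaling and 5 to 28 without 1 library, and neither the exact test nor the 6 libraries alone give an interaction. The causes were not tested. The call of *rde-4* was kept under each of these alternatives.

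With the replicate number as a block there were 156 higher and 108 lower genes, which held all 71, 45 higher genes on the small RNA list and 86 interactions. The deviations of same-numbered *age-1* and *age-1; rde-4* populations from their group means correlated across genes at 0.19, 0.09 and 0.16, and no label ties the numbers to a shared day, so they were not taken as pairs, although each population correlated best with its own number.

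All 50 named called genes other than *rde-4* kept their direction under every alternative run. The log2 fold changes of 4 named genes without a call turned their sign, *age-1* from −0.21 to 0.16 over the fits that left out 1 library, with the sign turned without *age-1; rde-4* replicate 1 (0.16), *alg-3* from −0.30 to 0.0023 over the fits that left out 1 library, with the sign turned without *age-1* replicate 2 (0.0023), *vab-1* from −0.025 to 0.39 over the fits that left out 1 library, with the sign turned without *age-1; rde-4* replicate 2 (−0.025), *spig-5* from −0.43 to 0.065 over the fits that left out 1 library, with the sign turned without *age-1* replicate 2 (0.065). Genes at a few counts per library, such as Y116A8C.19 and ZK899.5, have fitted folds that depend on the prior count.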

Other observations

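Some higher genes were not called in *rde-4* against WT and are on none of the lists. None of those below had a called interaction, so a difference between the backgrounds was not shown for them. The neighbours Y102A5C.5, a pseudogene, and Y102A5C.36, 883 bp apart on chromosome V, were at 15, 21.2 and 22.9 CPM in *age-1* against 39.5, 42.5 and 68 CPM in the double mutant, and at 2.26 to 4.21 CPM in *age-1* against 8.01 to 16 CPM in the double mutant, respectively (log2 fold change 1.34, adjusted p = 0.0192 and log2 fold change 1.92, adjusted p = 0.0192). In WT they were at 38, 53.6 and 45.3 CPM and 8.85, 7.63 and 8.37 CPM, above all *age-1* populations. C27C7.7 was at 0.211, 0.142 and 0.193 CPM in *age-1* against 1.17, 1.25 and 0.913 CPM in the double mutant (log2 fold change 2.60, adjusted p = 0.0301). Its log2 fold change between *rde-4* and WT was 0.88 (adjusted p = 0.39), and its interaction was 1.72 (adjusted p = 0.32). *acbp-8*, an acyl-CoA-binding protein gene, was at 4.38, 3.43 and 4.75 CPM in *age-1* against 10.4, 8.39 and 7.53 CPM in the double mutant (log2 fold change 1.07, adjusted p = 0.0181), with both groups below WT (15.8, 14 and 15 CPM). *dmd-9*, a gene of the DM domain family, was at 3.11, 3.57 and 4.72 CPM in *age-1* against 6.5, 10.2 and 10.2 CPM in the double mutant (log2 fold change 1.24, adjusted p = 0.0444), and F52C6.3 at 3.42, 3.21 and 3.93 CPM in *age-1* against 7.03, 7.24 and 6.38 CPM in the double mutant (log2 fold change 0.97, adjusted p = 0.042). These calls were kept in 0 to 3 of the 6 fits that left out 1 library. These genes were chosen after their values were seen.

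Y116A8C.19 and ZK899.5 had few counts in *age-1*. Y116A8C.19 held 0, 0 and 2 counts in *age-1* and 12, 74 and 43 counts in the double mutant, a ratio of 60.4 (95% exact interval 16.38 to 504), and ZK899.5 held 0, 3 and 4 and 14, 174 and 90 counts, a ratio of 37.2 (17.8 to 93.3). Each kept its call in 1 of the 6 fits that left out 1 library (adjusted p up to 0.167 without *age-1* replicate 1 and 0.19 without *age-1; rde-4* replicate 2). Both were lowest in replicate 1 of *age-1; rde-4* among the double mutant populations, and in WT they were at 0.217, 0.384 and 0.545 CPM and 0.733, 0.48 and 1.02 CPM.

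XLOC_007958 and XLOC_007959, consecutive identifiers of assembled transcripts outside the annotation, rose from 1.96 to 7.88 CPM and from 1.69 to 5.09 CPM in the mean (log2 fold change 2.00, adjusted p = 0.00712 and log2 fold change 1.59, adjusted p = 0.0368). The noncoding RNA Y53F4B.45, which overlaps *trip-4* on the opposite strand, was at 14.2, 24.1 and 15 CPM in *age-1* against 49.9, 51.6 and 50.04 CPM in the double mutant (log2 fold change 1.51, adjusted p = 0.00784), while *trip-4* was at 41.1 CPM (*age-1*) and 38.5 CPM (double mutant) in the mean. W03D8.2, Y55F3AM.11 and Y11D7A.7, which are on none of the lists, rose in the *age-1* background (log2 fold change 1.63, adjusted p = 0.0368, log2 fold change 1.23, adjusted p = 0.00672 and log2 fold change 0.54, adjusted p = 0.047) and in *rde-4* against WT (log2 fold changes 2.94 (adjusted p = 0.000849), 1.48 (adjusted p = 0.000849) and 0.65 (adjusted p = 0.00499)). Of the genes of this paragraph, W03D8.2 and XLOC_007959 lost their calls in all 6 fits that left out 1 library (adjusted p up to 0.183 without *age-1* replicate 3 and 0.18 without *age-1* replicate 1), Y11D7A.7 in 5 (up to 0.236 without *age-1* replicate 1), Y53F4B.45 in 2 (up to 0.0663 without *age-1* replicate 1), and XLOC_007958 and Y55F3AM.11 in 1 each (0.0663 without *age-1* replicate 1 and 0.0653 without *age-1* replicate 1).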
